A study of Mus musculus with 4 samples.

Results

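Claudins and other tight junction genes were followed in the small intestine of mice lacking the Cyp3a cluster and of wild-type mice. The 35 genes were taken from a list of claudins, their membrane partners and the cytoplasmic proteins that anchor them, and all 35 had a probe on the array, matched by its transcript accession. A gene with several probes is represented by the brightest. The array named 21153 genes in all. Of the 35, 26 cleared the scanner's background call on 2 or more arrays and were tested among 14395 genes, and 9 were not tested. The knockout group held 2 arrays of Cyp3a-/- small intestine and the wild-type group 2 arrays of wild-type small intestine, taken, per the series' design, from different mice in 2 experiments. Strain, sex, age and the stretch of intestine taken are not given in the sources used here, nor is whether RNA of several animals was pooled.

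Tight junctions seal the space between neighbouring epithelial cells near their apical side. Claudins form the strands of the junction: some, such as claudins 3, 4 and 8, tighten it, while claudins 2 and 15 form channels for small cations and water. Occludin and its relatives share the strands, scaffold proteins of the zonula occludens family tie them to actin, and myosin light chain kinase tunes their tightness by contracting the actin ring. In the gut, claudin 2 is best known from crypts and claudin 15 is the channel that returns sodium to the lumen for glucose uptake.

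A level is the log2 of a probe's signal after division by its array's 75th percentile. A difference is knockout minus wild type on that log2 scale, with its standard error (SE) from limma. Levels of different genes come from different probes, so no result here rests on one gene's level against another's. Between 55.1% and 64.4% of probes were well above background on an array, no spot was saturated, and the number of arrays limits the precision. The targeted Cyp3a11, a drug-oxidising P450, had levels of -5.77 and -4.52 in knockout 1 and 2, against 5.05 and 5.78 in wild type 1 and 2, on the probe with the higher signal. Knockout 1 and wild type 2 shared a slide and its scan, while knockout 2 and wild type 1 each had a slide of their own. Across the tested genes knockout 1 correlated with knockout 2 at 0.948 and with wild type 1 and 2 at 0.966 and 0.962. Knockout 2 correlated with wild type 1 and 2 at 0.981 and 0.980, and wild type 1 with wild type 2 at 0.979. In bulk tissue, fewer cells of a type and less RNA per cell cannot be told apart.

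Markers of the tissue's cell types were read on each array. The 10 epithelial markers had median levels of 0.59 and 0.03 above the wild-type mean in knockout 1 and 2, and their summed signal, in units of the 75th percentile, came to 565 and 373 in knockout 1 and 2, against 385 and 393 in wild type 1 and 2. The 10 absorptive enterocyte markers had medians of 0.95 and -0.26 in knockout 1 and 2, with summed signals of 1387 and 783 in knockout 1 and 2, against 1068 and 695 in wild type 1 and 2. The 8 smooth muscle markers had medians of -0.91 and 0.68 in knockout 1 and 2, with sums of 108 and 324, against 189 and 216 in wild type 1 and 2. All markers of these 3 lists were tested and none was at background on every array. Gastric markers were also present: the 4 tested, of 6 listed, had sums of 0.976 and 861 in knockout 1 and 2, against 26.3 and 477 in wild type 1 and 2, while Atp4a, of the acid pump, was not above background on any array. The part of these marker values in the junction gene values was not tested.

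None of the 26 tested genes passed the threshold of 0.05. Limma called 0 higher and 0 lower (adjusted p = 1.00 each), against 0% of all tested genes called higher and 0.0417% called lower. At an unadjusted p under 0.05 the count was also 0, against 0.167% of all tested genes higher and 0.271% lower. Limma's smallest unadjusted p among the 26 was 0.186, for Cldn8 (adjusted p = 1.00). The median difference was 0.043 for the 26 genes and 0.037 for all tested genes, and the median size of a difference was 0.16 for the 26 genes and 0.17 for all. Both knockout arrays exceeded both wild-type ones in 1 of the 26 genes, Cldn12 (3.85%, against 8.66% of all genes), and were below them in 0 (against 6.09%). All 26 of the 95% intervals held 0. The narrowest, for Cldn12, ran between -0.44 and 0.81, and the widest, for Cldn4, between -1.92 and 1.73. After normexp background correction 9 of the 14 genes described by array had the opposite sign, among them Cldn12 (-0.30).

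**Figure D1:**
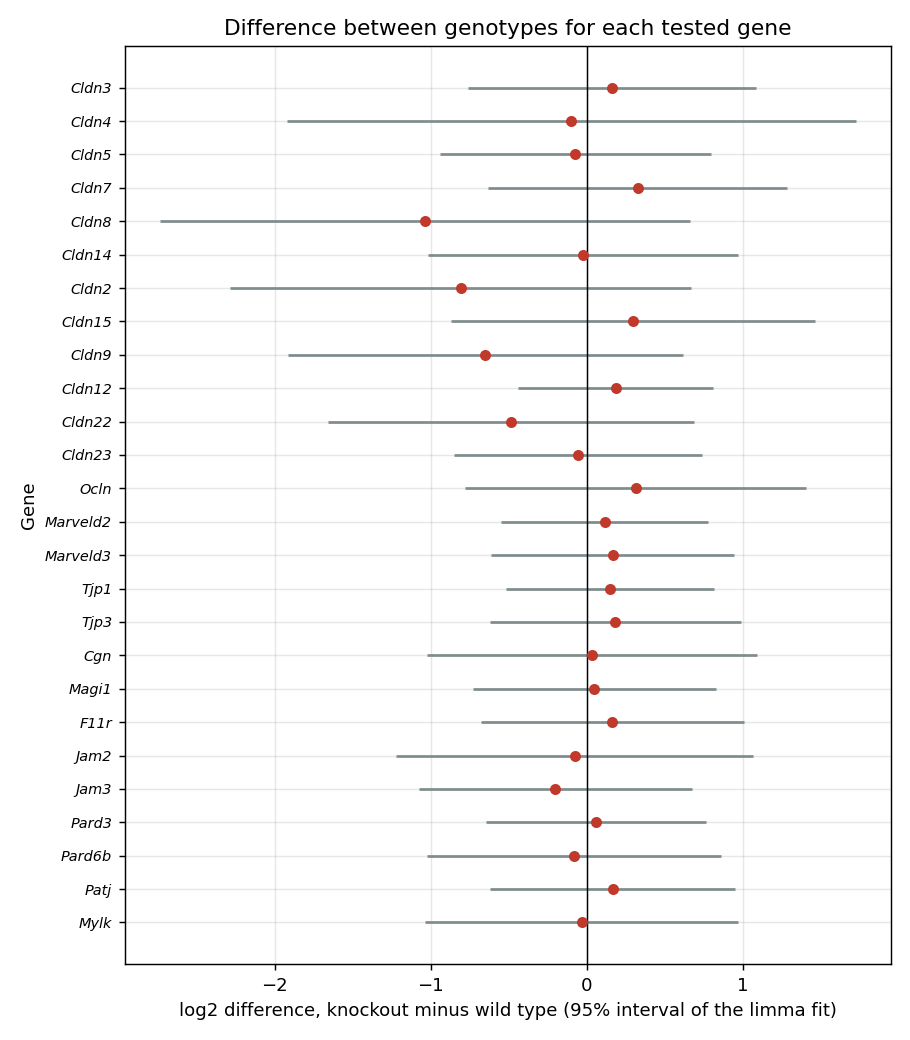
The log2 difference, knockout minus wild type, is plotted for each tested gene, with points for limma's estimate and lines for its 95% interval. Every line crosses 0, and Cldn8 (-1.04) and Cldn2 (-0.81) have the lowest points.

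Among the claudins that tighten the junction, 6 of 7 were tested, 0 were called, and 2 had positive and 4 negative differences. Cldn7, a claudin found along the whole side wall of gut epithelial cells, had levels of 6.65 and 6.01 in knockout 1 and 2, against 6.26 and 5.75 in wild type 1 and 2. Its difference was 0.33 (SE 0.39), and the groups overlapped because knockout 2 lay below wild type 1. Cldn3, a sealing claudin, had levels of 4.94 and 4.29 in knockout 1 and 2, against 4.76 and 4.14 in wild type 1 and 2 (difference 0.16, SE 0.38). In both genes knockout 1 was the highest array and wild type 2 the lowest.

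Cldn8, a sealing claudin best known from the colon and the kidney's collecting duct, had the largest difference of the 26 genes under the scaling used. After normexp background correction, which added an offset of 50 to each signal, that difference was -0.14. An offset by itself shrinks the log2 differences of dim probes most, and its part in this value was not tested. Of the 14 genes described by array, only Cldn22 (-0.048) and Tjp1 (-0.021) then had differences smaller in size. Those of Cldn2 (-1.19), Cldn9 (0.74) and Mylk (-0.61) were the largest of the 14. The levels of Cldn8 were -3.58 and -1.43 in knockout 1 and 2, against -1.68 and -1.26 in wild type 1 and 2 (difference -1.04, SE 0.70). Knockout 1 alone was low: it lay 2.15 below knockout 2, while the wild-type arrays lay within 0.42 of each other. Cldn4, another sealing claudin, was chosen for description after its values were seen, for the distance between the knockout arrays. It had levels of 0.34 and -1.91 in knockout 1 and 2, against -1.17 and -0.21 in wild type 1 and 2 (difference -0.10, SE 0.75). The knockout arrays were its highest and its lowest array, so that the small difference is the mean of values on either side of wild type. Cldn5, the claudin of blood vessel lining, and Cldn14, a cation-blocking claudin known from the inner ear and kidney, had differences of -0.07 and -0.02. Of the 8 tested endothelial markers 7 had negative differences, while 56.2% of all tested genes had positive ones. The 7 lay between -0.44 (Emcn) and -0.00012 (Kdr), and Pecam1 had a difference of 0.03. Both knockout arrays were below both wild-type ones for 3 of the 8 (37.5%, against 6.09% of all genes). Medians of the 8 markers were -0.28 and -0.18 in knockout 1 and 2. Their summed signals, to which Kdr and Egfl7 gave most, were 20.4 and 28.5 in knockout 1 and 2, against 24.2 and 25.4 in wild type 1 and 2, and the part of this in the values of Cldn5, Jam2, Jam3 and Esam, made there too, was not tested. Cldn1, a sealing claudin of skin, was not well above background on any array.

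**Figure D2:**
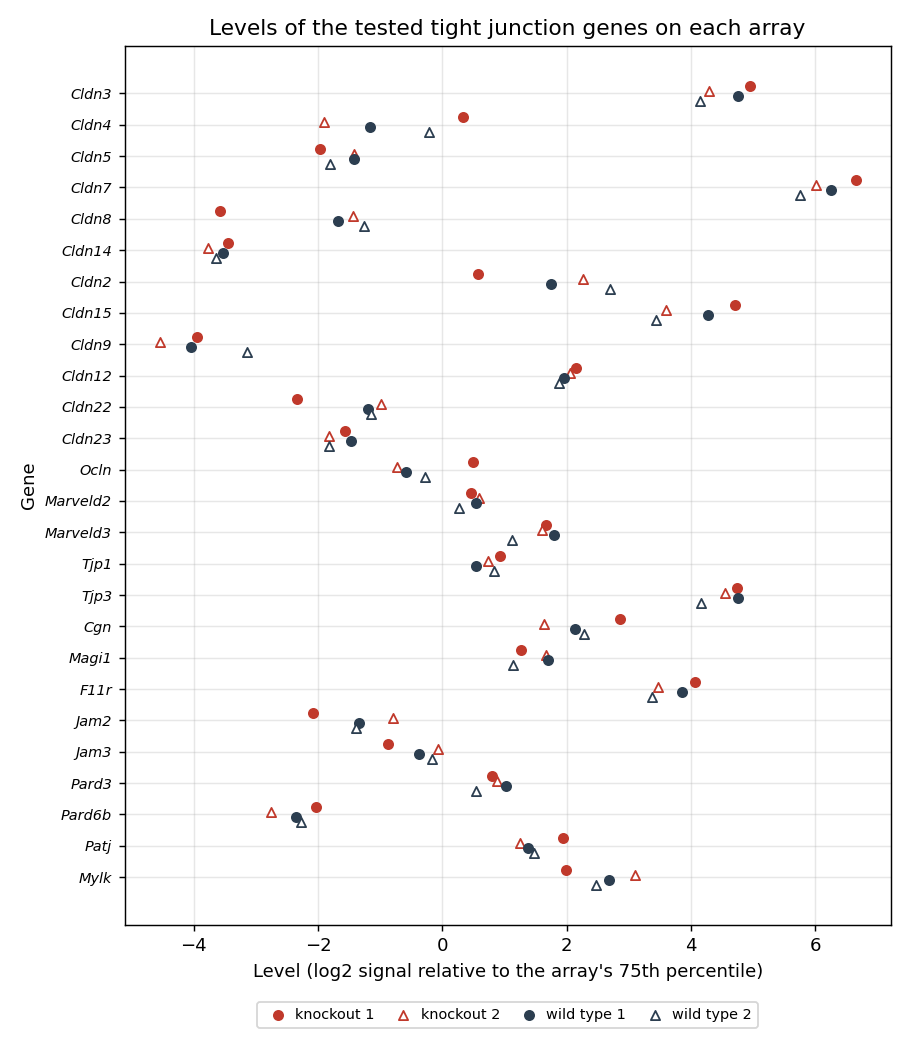
Levels of the 26 tested genes are plotted as log2 signal relative to the 75th percentile of the array, one point per array, red for knockout and dark blue for wild type, with circles for replicate 1 and open triangles for replicate 2. The knockout points of Cldn8 (-3.58 and -1.43) and Cldn4 (0.34 and -1.91) lie far apart, while the 4 points of Cldn12 lie between 1.88 and 2.15.

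Of the 3 channel-forming claudins, 2 were tested. Cldn2 had levels of 0.57 and 2.26 in knockout 1 and 2, against 1.75 and 2.70 in wild type 1 and 2. Its difference was -0.81 (SE 0.61), with knockout 1 the lowest array and knockout 2 between the wild-type arrays. Cldn15 had levels of 4.72 and 3.60 in knockout 1 and 2, against 4.27 and 3.44 in wild type 1 and 2 (difference 0.30, SE 0.48), with knockout 1 the highest array. Relative to the wild-type mean, knockout 1 was thus at -1.65 for Cldn2 and at 0.86 for Cldn15, and knockout 2 at 0.04 and -0.26. The 6 tested crypt and stem cell markers had medians of -0.51 and 0.06 in knockout 1 and 2. Their sums were 21.2 and 29.9 in knockout 1 and 2, against 26.7 and 35.6 in wild type 1 and 2. The markers were split: knockout 1 was the highest array for 2 (Lgr5 and Rnf43) and the lowest for 3 (Ascl2, Smoc2 and Sox9). The part of these marker values in the Cldn2 value was not tested. Cldn10, a channel claudin known from the kidney, was not well above background on any array.

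The promoters of Cldn2, Cldn4 and Cldn15 are shown because knockout 1 lay below both wild-type arrays for Cldn2 and above both for Cldn4 and Cldn15, a choice made after their values were seen. They are from RefSeq (GRCm38.p6), 250 bases before to 50 after the start, 5′ to 3′ on the gene's strand, at chrX:139800558-139800857 (plus strand), chr5:134946885-134947184 (minus strand) and chr5:136967619-136967918 (plus strand). Capitals mark matches, on either strand, to any of 4 motifs. TTTAT is the core of sites of the intestinal factor Cdx2. The motif TATAAA is the core promoter box near the start of many genes. GC boxes, read by Sp1, were searched as GGGCGG. Sites of the Gata4 family were searched as AGATAA.
Cldn2: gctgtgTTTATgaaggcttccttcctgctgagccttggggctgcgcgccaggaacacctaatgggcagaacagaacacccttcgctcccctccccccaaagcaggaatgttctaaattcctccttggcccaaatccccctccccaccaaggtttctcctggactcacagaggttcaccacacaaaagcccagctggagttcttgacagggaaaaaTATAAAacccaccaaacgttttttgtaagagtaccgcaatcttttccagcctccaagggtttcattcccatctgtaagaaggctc
Cldn4: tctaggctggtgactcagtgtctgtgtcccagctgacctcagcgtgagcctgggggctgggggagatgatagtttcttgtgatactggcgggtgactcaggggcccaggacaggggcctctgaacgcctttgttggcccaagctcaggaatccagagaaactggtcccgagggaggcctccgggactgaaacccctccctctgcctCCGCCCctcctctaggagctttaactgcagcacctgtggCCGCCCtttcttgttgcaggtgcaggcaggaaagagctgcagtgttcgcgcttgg
Cldn15: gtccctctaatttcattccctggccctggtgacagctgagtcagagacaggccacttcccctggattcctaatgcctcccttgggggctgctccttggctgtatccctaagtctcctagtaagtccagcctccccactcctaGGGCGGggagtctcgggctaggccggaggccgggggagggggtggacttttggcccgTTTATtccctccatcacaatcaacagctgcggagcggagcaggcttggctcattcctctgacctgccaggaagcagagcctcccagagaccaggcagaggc

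The Cldn2 window held 2 matches to TTTAT, of which the one nearer the start overlaps its single TATAAA, and 0 to GGGCGG. The Cldn4 window held 2 matches to GGGCGG, both on the other strand, and 0 to TTTAT, and the Cldn15 window 1 of each. AGATAA had 0 matches in these 3 windows. Over all 32851 windows of the same length, 40.0% held TTTAT, 13.6% TATAAA, 35.7% GGGCGG and 11.2% AGATAA. These matches describe the letters of the windows.

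Of the 10 other claudins, 4 were tested. Cldn12, a claudin linked to calcium uptake across gut epithelium, had levels of 2.15 and 2.05 in knockout 1 and 2, against 1.95 and 1.88 in wild type 1 and 2 (difference 0.19, SE 0.26). It was the gene without overlap, and its difference did not pass the threshold. Cldn9, known from the inner ear, had levels of -3.94 and -4.55 in knockout 1 and 2, against -4.05 and -3.14 in wild type 1 and 2 (difference -0.65, SE 0.52), and did not clear background in knockout 2. Cldn22 had levels of -2.33 and -0.99 in knockout 1 and 2, against -1.20 and -1.15 in wild type 1 and 2 (difference -0.49, SE 0.48), with knockout 1 lowest and knockout 2 highest. Cldn23 had a difference of -0.05. Cldn6, Cldn11, Cldn13, Cldn16 and Cldn17 did not clear background on a single array, and Cldn19 cleared it on wild type 2 only.

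The membrane partners of the claudins were all tested. Ocln, which encodes occludin, had levels of 0.49 and -0.73 in knockout 1 and 2, against -0.58 and -0.28 in wild type 1 and 2 (difference 0.31, SE 0.45). As for Cldn4, the knockout arrays were its highest and its lowest array. Marveld2, which encodes tricellulin, the protein of corners where 3 cells meet, had a difference of 0.12, and Marveld3, a relative of occludin, of 0.17. F11r, which encodes junctional adhesion molecule A, had levels of 4.07 and 3.48 in knockout 1 and 2, against 3.85 and 3.37 in wild type 1 and 2 (difference 0.16, SE 0.35), with knockout 1 highest and wild type 2 lowest. Its relatives Jam2 and Jam3, also made by blood vessel lining, had differences of -0.08 and -0.20, with knockout 1 the lowest array in both. On the dimmer Jam2 probe wild type 1 was the lowest array (-3.96, against -3.79 in knockout 1).

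Of the scaffold genes 4 of 5 were tested, with differences between 0.04 and 0.18. Tjp1, which encodes zonula occludens 1, had levels of 0.93 and 0.74 in knockout 1 and 2, against 0.54 and 0.83 in wild type 1 and 2 (difference 0.15, SE 0.27). Cgn, which encodes cingulin, a link between the junction and myosin, had levels of 2.86 and 1.63 in knockout 1 and 2, against 2.14 and 2.28 in wild type 1 and 2 (difference 0.04, SE 0.43). Its knockout arrays were 1.23 apart on either side of wild-type values only 0.14 apart. Tjp3, which encodes zonula occludens 3, and the scaffold gene Magi1 had differences of 0.18 and 0.05, and Cgnl1, which encodes paracingulin, was well above background on wild type 2 only. The polarity genes Pard3, Pard6b and Patj, whose proteins set the junction's place along the cell side, had differences of 0.06, -0.08 and 0.17. Mylk, the myosin light chain kinase gene, had levels of 1.99 and 3.11 in knockout 1 and 2, against 2.68 and 2.47 in wild type 1 and 2 (difference -0.03, SE 0.41). The gene also makes the kinase of smooth muscle, and both its level and the summed smooth muscle markers were lowest in knockout 1 and highest in knockout 2. The part of the muscle markers in the Mylk value was not tested.

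The knockout arrays often differed from each other. In 18 of the 26 genes the knockout arrays lay on opposite sides of the wild-type mean (69.2%, against 61.8% of all genes). Knockout 1 was the highest of the 4 arrays for 12 genes (46.2%, against 34.2% of all genes) and the lowest for 7 (26.9%, against 32.6%). The 12 highest were Cldn3, Cldn4, Cldn7, Cldn14, Cldn15, Cldn12, Ocln, Tjp1, Cgn, F11r, Pard6b and Patj, and the 7 lowest were Cldn5, Cldn8, Cldn2, Cldn22, Jam2, Jam3 and Mylk. Without knockout 2, limma called Cldn8 (difference -2.11, adjusted p = 0.0103) and Cldn2 (difference -1.65, adjusted p = 0.0306) lower, 2 of 26 genes (7.69%, against 2.07% of all genes). Without knockout 1 the differences of Cldn8 and Cldn2 were 0.037 and 0.036 (adjusted p = 1.00 each). In each of these fits the lone knockout array is assumed to vary like the wild-type arrays. With all 4 arrays the Cldn8 difference was -1.04, and it was -0.14 after normexp background correction. On the slide that held both genotypes, the difference of knockout 1 from wild type 2 was -2.32 for Cldn8, -2.13 for Cldn2 and 1.27 for Cldn15.

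**Figure D3:**
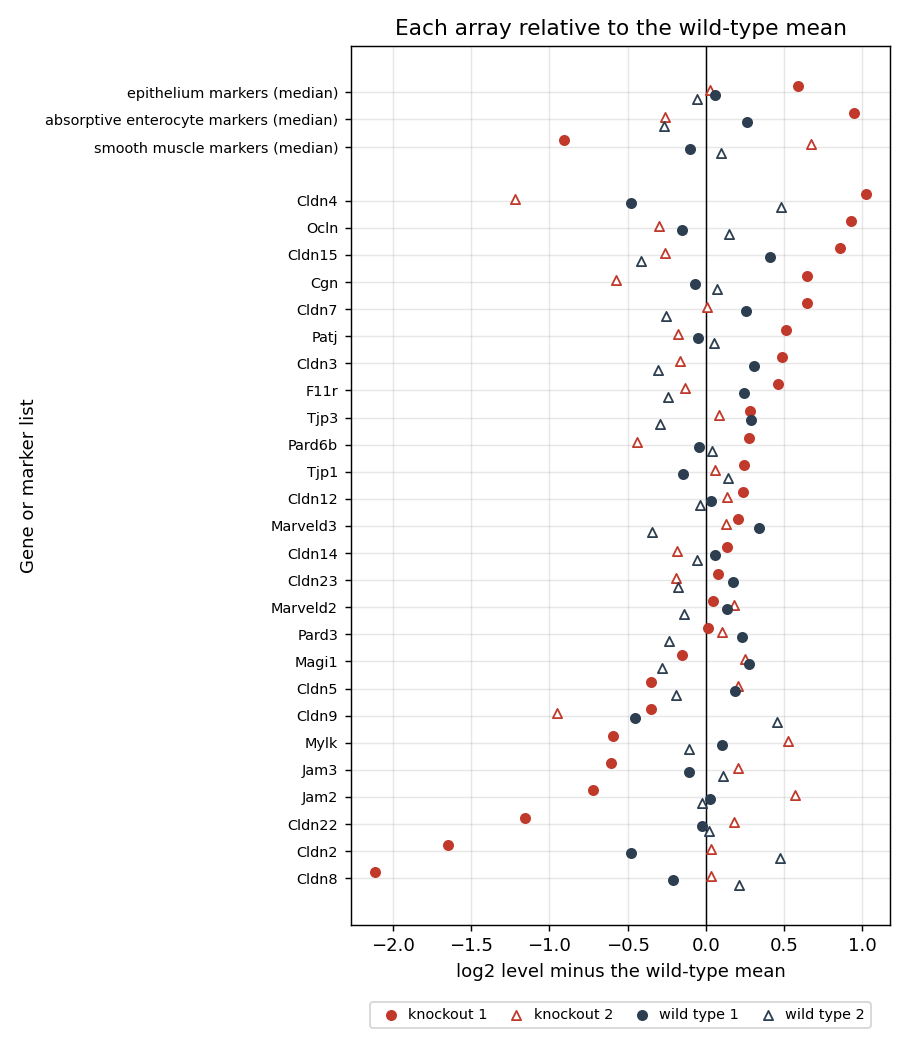
The level of each array minus the wild-type mean (log2) is plotted for the 26 genes, ordered by knockout 1, with the medians of 3 marker lists at the top. Knockout 1 reaches -2.11 for Cldn8 and 1.03 for Cldn4, and its marker medians are 0.59 for epithelium, 0.95 for absorptive enterocytes and -0.91 for smooth muscle.

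Genes with several probes showed how far these array values depended on the probe. Both Cldn2 probes were low in knockout 1 (-1.65 and -1.14 relative to wild type) and not in knockout 2 (0.04 and 0.37). Both Cldn4 probes were high in knockout 1 (1.03 and 0.60) and low in knockout 2 (-1.22 and -0.97). The Ocln probes nearly coincided, at 0.93 and 0.93 in knockout 1 and -0.30 and -0.30 in knockout 2. The 4 probes of Pard3 disagreed in knockout 1, between -0.38 and 0.25, and the 5 of Patj ranged between 0.00 and 0.80. In 4 of the 8 genes the probes differed in the sign of the genotype difference. It was -0.08 and 0.06 for Jam2 and 0.05 and -0.31 for Magi1, lay between -0.09 and 0.06 over the Pard3 probes, and between -0.12 and 0.23 over those of Patj.

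**Figure D4:**
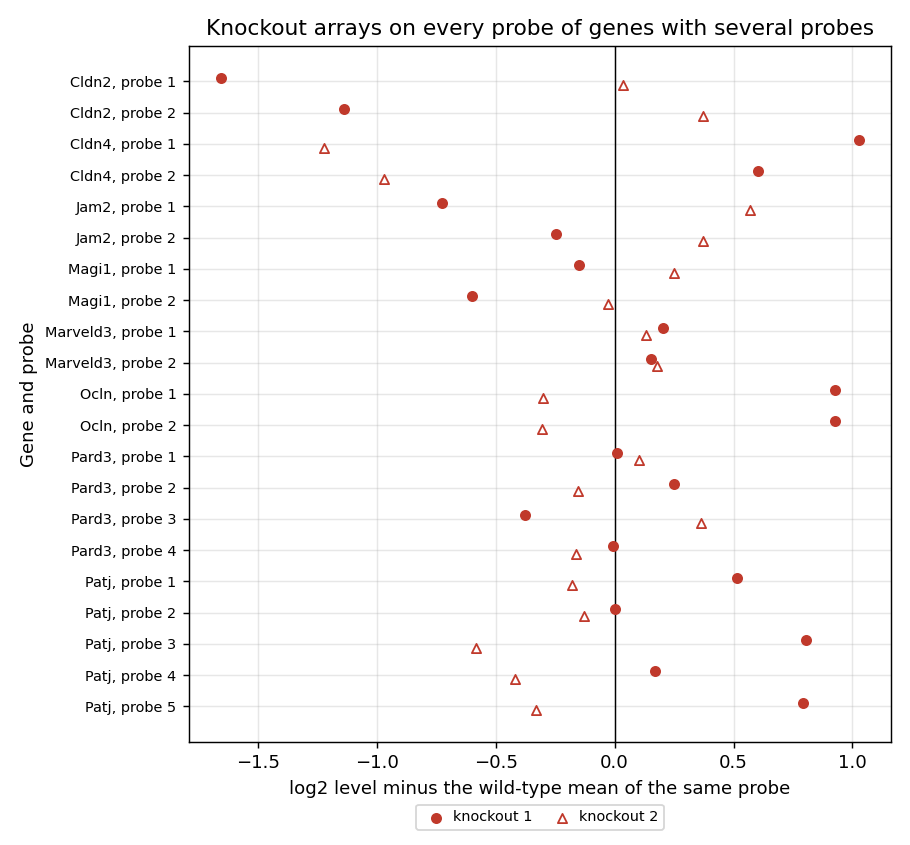
The 2 knockout arrays are plotted relative to the wild-type mean of the same probe (log2), for every probe of the 8 genes with more than 1. Knockout 1 lies left of 0 on both Cldn2 probes and right of 0 on both Cldn4 and both Ocln probes.

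Of the 35 genes, 5 lie on chromosome 5, the chromosome of the deleted cluster: Cldn3, Cldn4, Cldn12, Cldn13 and Cldn15. By gene order in the RefSeq annotation, 160 protein-coding genes lie between Cldn15 and the cluster, 203 between Cldn3 and the cluster and 204 between Cldn4 and the cluster, and Cldn12 lies 1165 genes away. The 4 of these that were tested had differences of 0.16, -0.10, 0.19 and 0.30 (in the order Cldn3, Cldn4, Cldn12, Cldn15). Another 8 of the 35 genes lie on chromosome 16.

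A second list held 50 symbols of junction genes outside the 35, with Mpp5 and Pals1 as older and newer names of the same gene. It held 39 tested genes, of which 0 were called higher and 0 lower (adjusted p = 1.00 each). Their median difference was 0.09 (0.037 over all tested genes), and 26 of 39 were positive, against 56.2% of all tested genes. Both knockout arrays were above both wild-type ones for 4 of them (10.3%, against 8.66% of all genes) and below for 2 (5.13%, against 6.09%), shares near those of all genes. These 6 are named for completeness. Lsr, which encodes a tricellular junction protein, had levels of 5.67 and 5.66 in knockout 1 and 2, against 5.56 and 5.30 in wild type 1 and 2. Rhoa, Rock2 and Prkci, which encode a small GTPase of the actin ring, its kinase and a polarity kinase, had differences of 0.16, 0.49 and 0.16. Esam, an adhesion molecule of endothelium, and Rab13, a trafficking GTPase of junctions, had differences of -0.44 and -0.17.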

How the data were processed

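Small intestine RNA, labelled with Cy3 per the labels, was hybridised to Agilent mouse arrays. Agilent Feature Extraction 11.5.1.1 extracted the signals, per the submitters' processing notes. The authors deposited an intensity per spot, which the file headers name as the processed signal and which carries no scaling between arrays. The authors' deposited value table holds log2 values whose scale is not stated; it matched log2 processed signal minus the 75th percentile and the probe's median within 0.01 for 100% of 39408 probes, so it keeps differences and no levels. Its column medians were -0.11 and 0.12 for knockout 1 and 2 and 0.05 and -0.10 for wild type 1 and 2.

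Control and outlier spots were dropped, spots of a probe averaged, and arrays scaled by their 75th percentile. Of 39429 probes, 28025 matched 1 symbol by accession in the RefSeq table (GRCm38.p6); the array design names another build, so that table gives only names, gene order and promoters. Probes well above background on at least 2 arrays and the brightest probe per gene were kept. All 14395 genes were fitted by limma's lmFit and trended eBayes (limma 3.58.1, R 4.3.3), with Benjamini-Hochberg adjustment. Simulated data were also run through the fit, and their outcome is not given here. The eBayes step draws each gene's spread toward that of genes of like signal, so SEs, intervals and p-values rest partly on other genes. For Cldn12 the SE was 0.26, while its levels had standard deviations of 0.073 in knockout and 0.047 in wild type. With 2 arrays a group, p-values reflect spread between these arrays only.

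The genes and lists were chosen with earlier results of these data known. Values of every array are given for genes without overlap, the 6 largest differences, the 4 claudins of highest mean level (a choice by signal across probes, used only to pick genes), and Ocln, Tjp1, Cgn, F11r and Mylk. Alternatives were normexp, quantile and median scaling, other filters, the mean of probes, the authors' table (without trend, since it is centred), no trend, a replicate block, the shared slide, and leaving out each array. The files used here hold no mean spot signal, so normexp was run on the median spot and background intensity. Its offset, added to each signal, was 50. With slide as a fixed term no residual degrees of freedom remain, so the shared-slide difference is given.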

Additional observations from a re-analysis of the deposited data

How the results depend on the processing

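No member was called under any alternative with all 4 arrays, and leaving out an array gave 0 called higher and 0 to 2 lower, the 2 being Cldn8 and Cldn2 without knockout 2. Genes without overlap numbered 2 higher and 2 lower after normexp (7.69% each, against 11.6% and 11.2% of all genes). With 3 arrays, where overlap is less likely by construction, they numbered between 2 (7.69%, against 20.9%, without wild type 2) and 12 higher (46.2%, against 37.9%, without knockout 2), and between 3 (of 26, against 2975 of 14395 genes, without wild type 1) and 8 lower (30.8%, against 26.6%, without knockout 1). The median difference was -0.11 after normexp (0.08 over all genes) and 0.24 within the shared slide (0.080 over all genes). It lay between -0.11 (without wild type 2, -0.014 over all genes) and 0.17 (without knockout 2, 0.032 over all genes) with an array left out. After normexp 9 of 14 described genes changed sign, and the cause was not tested: Cldn12 -0.30, Cldn9 0.74, Cldn7 -0.34, Cldn3 -0.50, Cldn15 -0.28, Tjp1 -0.021, Cgn -0.42, F11r -0.40 and Cldn4 0.56. Quantile scaling turned Cgn (-0.047), median scaling Mylk (0.027) and the shared slide Cldn4 (0.54). With an array left out the differences lay between -2.11 and 0.037 for Cldn8, -1.65 and 0.036 for Cldn2, -1.16 and 0.18 for Cldn22, -0.30 and 0.93 for Ocln, -0.16 and 0.49 for Cldn3, -0.26 and 0.86 for Cldn15, -0.58 and 0.65 for Cgn, -0.13 and 0.46 for F11r, -0.59 and 0.53 for Mylk, and -1.22 and 1.03 for Cldn4, all spanning 0. Without spanning 0 they lay between 0.0071 and 0.65 for Cldn7, 0.0064 and 0.30 for Tjp1, -1.10 and -0.20 for Cldn9 and 0.13 and 0.24 for Cldn12. With the replicate number as a block (replicate block) 0 members were called and the median difference stayed 0.043; same-numbered arrays deviated with a correlation of 0.05, which does not show that they are paired. Over all genes 6 were called, against 32 with the block, 13 after normexp, 0 with a filter on all 4 arrays, and between 0 and 433 (without knockout 2) with an array left out. Signals near background, as for Cldn9 and Cldn14, limit what these arrays can show.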

Other observations

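Cldn18, a claudin known from stomach epithelium, was looked at after its values were seen. Its levels were -5.55 and -2.57 in knockout 1 and 2, against -6.04 and -2.93 in wild type 1 and 2, so 1 array of each genotype was high. Those were also the arrays with the higher sums of the gastric markers.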
